A study of Mus musculus with 8 samples.

Results

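Integrins and laminins were examined in mammary tumors grown from the PyMt cell line, in mice treated on the skin with calcipotriol or with its solvent, EtOH. The set was defined by gene symbol, as every protein-coding gene named as an integrin α chain (Itga), an integrin β chain (Itgb1 to Itgb8) or a laminin α, β or γ chain (Lama, Lamb, Lamc). It held 37 of the 55414 genes of the table, namely 18 integrin α chains, 8 integrin β chains and 11 laminin chains, of which 34 were tested. The chains were divided by the cells that chiefly use them into 8 leukocyte, 6 epithelial, 6 vascular and platelet, 3 mesenchymal and muscle and 3 broadly expressed integrins, and the 11 laminin chains into epithelial chains, chains of laminin-111 and laminin-511, and mesenchymal and vascular chains.

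Integrins are cell surface receptors made of one α and one β chain, and the pair decides what the cell can hold on to: fibronectin, collagen, laminin or a receptor on another cell. Laminins are secreted trimers of one α, one β and one γ chain that polymerize into the basement membrane under epithelia and around blood vessels and muscle fibers. In the mammary gland, laminin bound by integrins α3β1, α6β1 and α6β4 gives epithelial cells their polarity, and leukocytes use the β2 and α4 integrins to leave the blood and move through tissue.

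All 8 tumors came from the same cell line, derived from 1 tumor of the MMTV-PyMt transgenic line, in which a mammary promoter drives the polyoma middle T oncogene. The cells were implanted into the mammary fat pad of 6- to 8-week-old female WT mice of the C57BL/6 background, and 20 nmol calcipotriol, a vitamin D analog, or EtOH was applied over the tumor every 2 days from day 2 on, with RNA isolated from tumors 24 hours after treatment ended. The groups were 4 EtOH-treated tumors (replicates 1, 2, 3 and 4) and 4 calcipotriol-treated tumors (replicates 1, 5, 6 and 7), and values by tumor are given in these orders. The labels call the cell type epithelial, but RNA was taken from whole tumors, so that stromal and immune cells contributed. The keratins Krt8 and Krt18 were abundant in every tumor, at 285 to 652 and 259.7 to 665 CPM, whereas the epithelial adhesion gene Epcam was at 0, 0, 4.29 and 2.87 CPM with EtOH and 1.51, 1.19, 19.1 and 22.7 CPM with calcipotriol. Levels are in CPM, the counts of a gene relative to the TMM-adjusted total of its library.

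Library totals were 19685397 to 25084715 counts, and the 37 genes took 0.58% to 0.79% of them with EtOH and 0.405% to 0.576% with calcipotriol. Calcipotriol replicate 1 stood apart from the other calcipotriol-treated tumors in macrophage genes, but not in a single direction. Csf1r, like most of the macrophage and monocyte markers, was higher in it (219.8 CPM against 72.2 to 74.2 CPM). Cd163 was lower (51.7 CPM against 122.8 to 137.4 CPM), as was Mrc1 (181 CPM against 216 to 243 CPM), and Ly6c2 lay within the range of the others. Leaving out calcipotriol replicate 1 raised the number of genes past both thresholds from 292 to 642. EtOH replicates 1 and 2 differed from EtOH replicates 3 and 4 in endothelial genes, whose summed level was 405, 432, 189 and 193 CPM. A change in the amount of a transcript per tumor can come from fewer cells of a type or from less RNA per cell, and these cannot be told apart in RNA of whole tumors.

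Levels of different genes were compared as CPM per kilobase of annotated exon. The most abundant chain was Itgb1, the β chain that pairs with most α chains, at 344 ± 18.5 CPM per kilobase (SD, n = 4) with EtOH and 309.5 ± 33.9 with calcipotriol. Next in EtOH-treated tumors came Itgb5 at 132 ± 25.1, Lamc1 at 102 ± 29.1, Itga6 at 87.9 ± 8.51, Lamb1 at 81.4 ± 17.7 and Lama5 at 66.5 ± 23.8 CPM per kilobase (SD, n = 4 each), with SDs that overlapped between neighbors in this order below Itgb1. The chains of laminin-511 (Lama5, Lamb1, Lamc1) and of the laminin receptor α6β4 were thus among the most abundant members. At the other end, Itgad had 0 counts in all 8 tumors, and Itgb6 and Lama1 were the other members with too few counts for a test. A count of 0 allows up to 3 counts from counting error alone, or 0.12 to 0.152 CPM by tumor on library totals without the TMM adjustment.

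**Figure D1:**
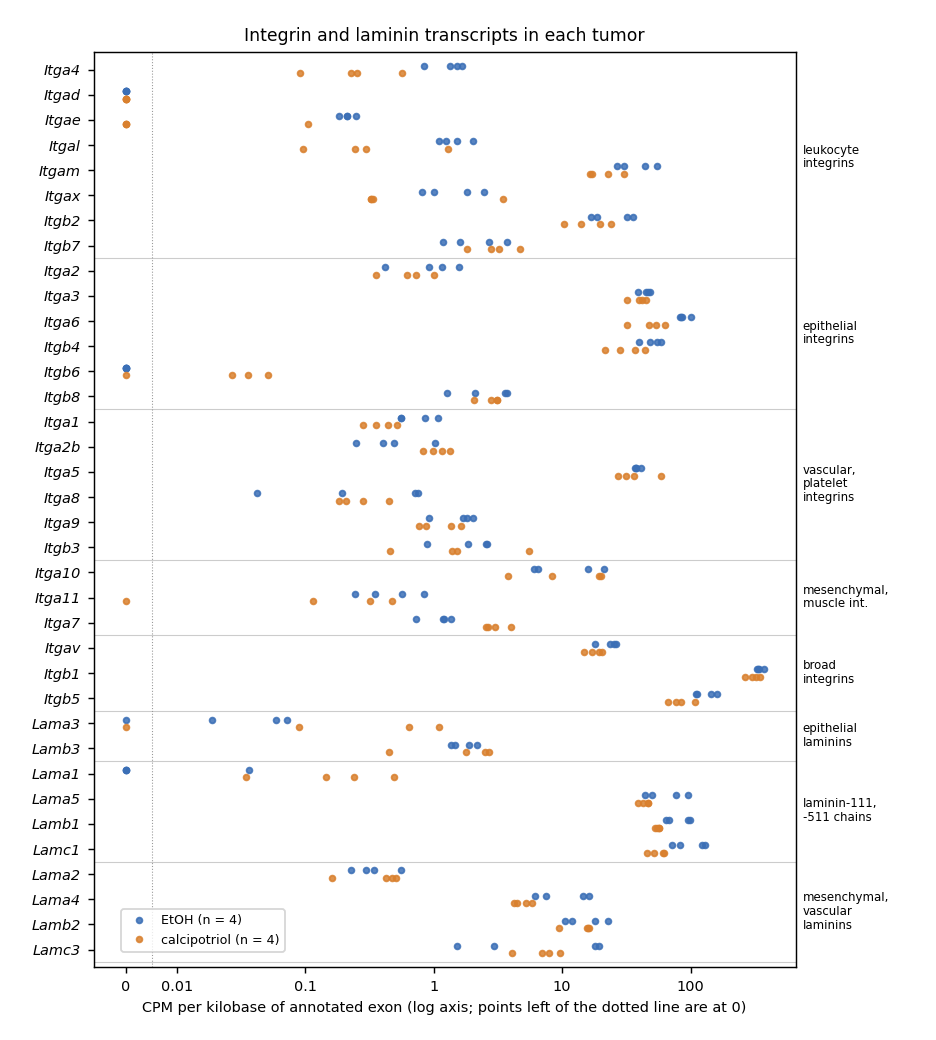
The plot of levels shows the members described here (rows, by group) in each tumor as CPM per kilobase of annotated exon on a log axis, with EtOH-treated tumors in blue and calcipotriol-treated tumors in orange, 4 tumors each. Itgb1 lies far right in every tumor and Itgad at 0 in every tumor, and Itga7 is the tested member whose orange points all lie right of the blue ones.

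The groups were then compared to ask which integrins and laminins changed with calcipotriol. Itga4, a leukocyte integrin, fell and Itga7, a laminin receptor of muscle, rose past both thresholds (adjusted p under 0.05 and a log2 change of 1 or more in either direction, by edgeR's quasi-likelihood test with Benjamini-Hochberg adjustment over all 14458 genes tested). These 2 genes are 5.88% of the 34 tested members, and 2.02% of all genes tested passed (1.07% higher, 0.948% lower). The same 2 members passed on the adjusted p alone, as did 2.74% of all genes (1.37% higher and 1.37% lower). The log2 fold change was negative for 24 of the 34 members and for 47.9% of all genes tested, and positive for 10 members and for 52.1% of all genes. Its median was -0.55 over the members and 0.02 over all genes tested.

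In 9 tested members every calcipotriol-treated tumor lay below every EtOH-treated tumor, and in 1 member, Itga7, every one lay above. The 9 members, among them Itga4, Itgae, Itga6, Itga1, Itgb5, Lamb1, Lamc1 and Lama4, are 26.5% of the 34, while 6.16% of all genes tested were separated in this direction and 6.32% in the other. Itgae is counted here although it met the filter on low counts only through the EtOH-treated tumors, where it was high. Apart from Itga4, none of these 9 passed the adjusted threshold in the edgeR fit with all tumors and the default filter on low counts. Without that filter Itga6, Lamc1 and Lama4 had an adjusted p of 0.027, 0.0246 and 0.0138 (edgeR). With DESeq2 in place of edgeR, Itga1, Itga6, Itgam, Itgb5, Lama4, Lamb1 and Lamc1 were also under an adjusted p of 0.05, all lower with calcipotriol, and Lama4 passed both thresholds. DESeq2 passed more genes of every kind, with 4.43% of all genes tested past both thresholds against 2.02% in edgeR. Its share of all genes on the adjusted p alone was not counted, so the members under that rule in DESeq2 cannot be set against all genes. An unadjusted p under 0.05 in edgeR was reached by 17 members, or 50% of those tested, against 18.4% of all genes tested.

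**Figure D2:**
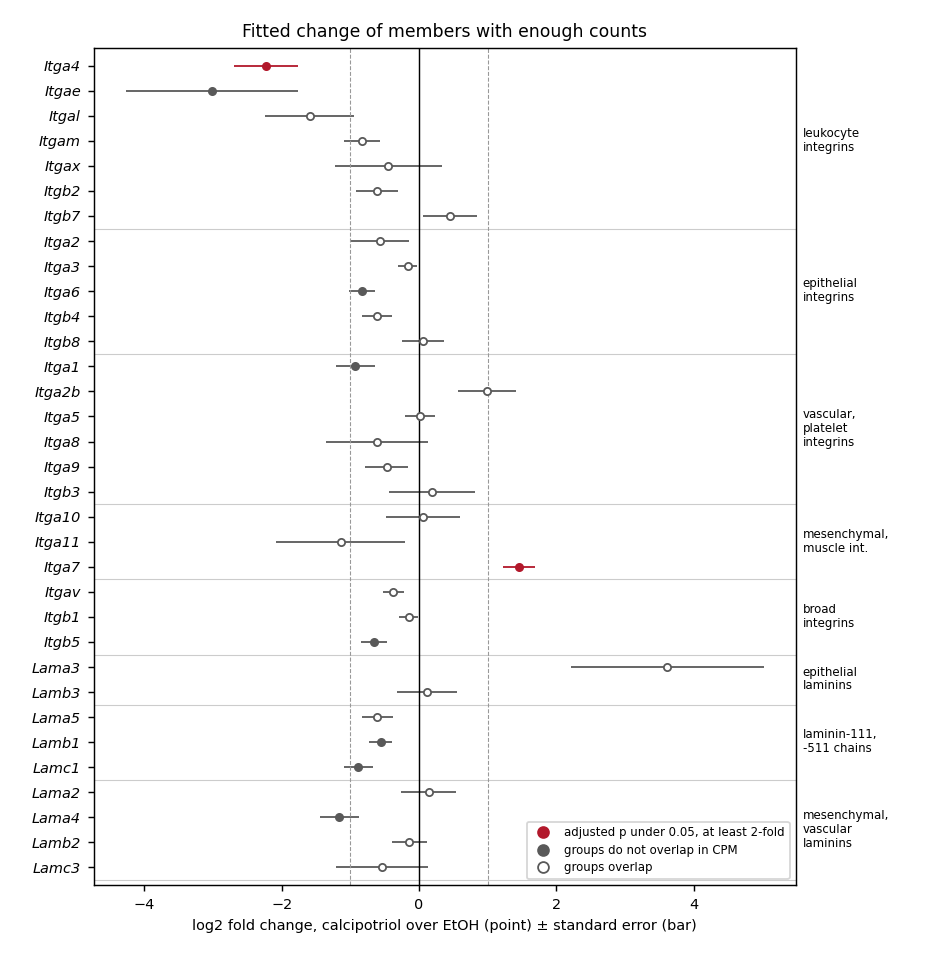
The plot of fitted changes gives the log2 fold change (calcipotriol over EtOH, points) with its standard error (bars) for the tested members described here, with dashed lines at a 2-fold change. Red points are Itga4 at -2.23 and Itga7 at 1.45, which passed both thresholds, filled points mark members whose groups do not overlap, and most points lie left of 0.

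Leukocyte integrins had the most negative median of the 8 groups. Of 7 tested, 6 had a negative log2 fold change (median -0.84) and 1, Itga4, passed. Itga4 encodes α4, which pairs with β1 or β7 and binds VCAM-1 and fibronectin on lymphocytes, monocytes, mast cells and eosinophils. It was at 18.8, 23.3, 21.3 and 11.7 CPM in the EtOH-treated tumors and at 7.99, 1.28, 3.17 and 3.56 CPM in the calcipotriol-treated tumors. The groups did not overlap, and calcipotriol replicate 1 was the nearest to the EtOH-treated tumors. Itga4 fell by 2.23 on the log2 scale (standard error, SE, of 0.47, adjusted p = 0.0345, edgeR), with group levels of 18.8 ± 5.05 against 4.0 ± 2.84 CPM (EtOH against calcipotriol, mean ± SD, n = 4 each). It passed with every other normalization, filter and test tried except glmTreat, but in 6 of the 8 fits that left out 1 tumor it did not pass (log2 fold change -2.81 to -1.93, adjusted p 0.00342 to 0.113, edgeR). The fits in which it still passed were those without EtOH replicate 4 and without calcipotriol replicate 1.

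Itga4 (ENSMUSG00000027009) lies on the forward strand at chr2:79255426-79333123 (GRCm38, GENCODE M21). Its exons share 1124 bases with Cerkl on the opposite strand, which had 0 counts in every tumor. RefSeq promoter sequences (GRCm38.p6) were given for 23 of the 37 members. The 250 bases before the transcription start are shown for Itga4, the member that fell, and for Itga1 and Itgb5, which had separated groups as well, so that the promoters of members that were lower together can be compared. The window of Lamb1, also separated, is not shown because the annotated start of the gene lies inside it. Each runs 5′ to 3′ in the direction of the gene (chr2:79255176-79255425 forward, chr13:115101965-115102214 reverse and chr16:33829415-33829664 forward), and capitals mark matches on either strand to the motifs searched.
Itga4: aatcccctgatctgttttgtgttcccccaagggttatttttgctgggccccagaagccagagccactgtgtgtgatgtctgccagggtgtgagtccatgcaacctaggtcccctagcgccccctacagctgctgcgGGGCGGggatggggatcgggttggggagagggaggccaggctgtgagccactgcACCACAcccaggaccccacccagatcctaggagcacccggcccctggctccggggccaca
Itga1: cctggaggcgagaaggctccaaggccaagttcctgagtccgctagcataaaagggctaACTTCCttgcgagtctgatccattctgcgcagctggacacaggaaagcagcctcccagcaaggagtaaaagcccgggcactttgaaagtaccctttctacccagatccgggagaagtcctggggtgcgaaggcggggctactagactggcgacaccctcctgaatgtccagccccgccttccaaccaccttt
Itgb5: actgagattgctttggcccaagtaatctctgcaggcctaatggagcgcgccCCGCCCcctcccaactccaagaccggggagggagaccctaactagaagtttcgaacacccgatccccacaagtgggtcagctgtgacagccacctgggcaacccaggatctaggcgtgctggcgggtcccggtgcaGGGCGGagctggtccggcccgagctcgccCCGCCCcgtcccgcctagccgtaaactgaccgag
The motifs were the GC box (GGGCGG), found in 32.7% of all 32851 promoters of the same length, the AP-1 site (TGANTCA, 6.75%), the ETS site (GGAAGT, 19.7%), the RUNX site (TGTGGT, 14%), the nuclear receptor half-site (AGGTCA, 14.0%) and the TATA box (TATAAA, 12.4%). In the Itga4 promoter the capitals are 1 GC box, 114 bases before the start, and 1 RUNX site, 60 bases before it, the latter on the reverse strand. The Itgb5 promoter held 3 GC boxes, and the Itga1 promoter held 1 ETS site. Of the 23 members, 8 had a GC box, 8 an ETS site, 2 a RUNX site, 1 an AP-1 site and none the half-site or the TATA box. The vitamin D receptor binds direct repeats of such half-sites with 3 bases between them, and 3 forms of this repeat (the first of which contains the half-site motif) were in none of the 23 windows and in 2, 2 and 0 of all promoters. A match describes these letters only.

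The β2 integrins of myeloid cells and lymphocytes were lower in some of the calcipotriol-treated tumors. Itgam, the α chain CD11b of monocytes, macrophages and neutrophils, was at 134, 152, 273 and 221 CPM with EtOH and 153, 115, 85.5 and 83.1 CPM with calcipotriol (log2 fold change -0.84, SE 0.26, adjusted p = 0.122, edgeR). Its partner chain Itgb2, shared by all β2 integrins, was at 56.8, 51.5, 109.6 and 98.3 CPM and 72.7, 59.7, 31.8 and 42.8 CPM. Calcipotriol replicate 1 lay within the range of the EtOH-treated tumors in both genes, calcipotriol replicate 5 in Itgb2, and the other calcipotriol-treated tumors lay below that range. Itgax (CD11c, of dendritic cells and macrophages) was at 16.7 CPM in calcipotriol replicate 1, above every EtOH-treated tumor, and at 1.55 to 1.63 CPM in the other 3, below every EtOH-treated tumor (3.93 to 11.8 CPM). Itgal (CD11a, the α chain of LFA-1 on lymphocytes) was at 9.92, 13.3, 8.22 and 7.19 CPM with EtOH and 8.5, 1.6, 1.97 and 0.636 CPM with calcipotriol, where the same tumor was again the high one. Without calcipotriol replicate 1, Itgam, Itgax and Itgal passed both thresholds, with log2 fold changes of -1.04, -2.21 and -2.78 (adjusted p = 0.038, 0.0179 and 0.00575, edgeR), and with it they had log2 fold changes of -0.84, -0.45 and -1.60. Itgam shares 68.7% of its exon bases with Gm49368 on the same strand, which was given 0 to 69 counts, so the split of reads between them is uncertain.

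Of the integrins of lymphocytes in epithelia and gut, Itgae was scarce, at means of 0.214 (EtOH) and 0.026 (calcipotriol) CPM per kilobase. Itgb7 was at means of 2.3 (EtOH) and 3.14 (calcipotriol) CPM per kilobase. Itgae (CD103, which binds E-cadherin) had 20, 20, 28 and 19 counts in the EtOH-treated and 0, 0, 10 and 0 in the calcipotriol-treated tumors, and the groups did not overlap (log2 fold change -3.02, SE 1.26, adjusted p = 0.236, edgeR). It met the filter on low counts only through the EtOH-treated tumors, so its separation and fold change are not independent of that filter. Itgb7, which pairs with α4 and αE, was the leukocyte chain with a positive log2 fold change (0.45, SE 0.40), at 3.26, 4.48, 10.2 and 7.5 CPM with EtOH and 13, 9.0, 5.05 and 7.8 CPM with calcipotriol. The groups overlapped for Itgb7.

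Markers of leukocytes were measured beside these integrins. The 12 macrophage and monocyte markers, all tested, summed to 2299 to 2858 CPM (EtOH) and 1160 to 2099 CPM (calcipotriol). Of these, 10 had a negative log2 fold change, Csf1r and Adgre1 fell past both thresholds (-1.64 and -1.24 on the log2 scale) and Cd163 rose (1.87). The 10 T cell and NK cell markers summed to 1.28 to 3.02 CPM (EtOH) and 2.63 to 16 CPM (calcipotriol), with 3 tested and the highest sum in calcipotriol replicate 1. The 7 neutrophil markers (5 tested) summed to 30.5 to 102 CPM (EtOH) and 38.5 to 148 CPM (calcipotriol), the 7 mast cell and eosinophil markers (4 tested, Prg2 at 0 counts throughout) to 10.3 to 51.3 CPM (EtOH) and 15.1 to 48.6 CPM (calcipotriol), and the 8 B cell and dendritic cell markers (2 tested) to 4.52 to 10.4 CPM (EtOH) and 4.61 to 7.38 CPM (calcipotriol). Their part in the levels of the leukocyte integrins was not tested.

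**Figure D3:**
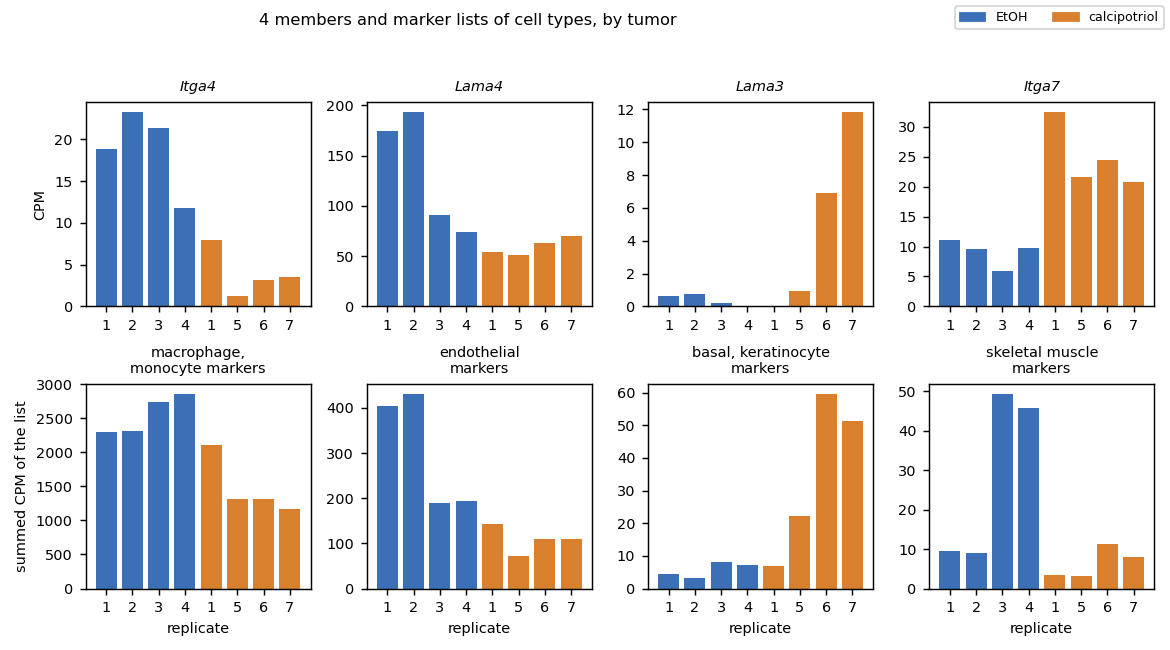
The plot of members beside markers gives CPM of Itga4, Lama4, Lama3 and Itga7 by tumor (upper bars) and the summed CPM of a marker list (lower bars), with EtOH-treated tumors in blue and calcipotriol-treated tumors in orange. Itga4 and the macrophage sum were lower in calcipotriol-treated tumors, Lama4 and the endothelial sum were highest in EtOH replicates 1 and 2, Lama3 and the basal sum were highest in calcipotriol replicates 6 and 7, and Itga7 was higher in calcipotriol-treated tumors, whose skeletal muscle sum was 3.15 to 11.2 CPM.

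Epithelial integrins were mostly lower with calcipotriol, but the fitted differences were under 2-fold and did not pass in edgeR. Of 5 tested, 4 had a negative log2 fold change (median -0.57), and 2 had an unadjusted p under 0.05. Itga6 encodes α6, which pairs with β4 in hemidesmosomes and with β1 elsewhere and binds laminin. It was at 757, 741, 907 and 770.0 CPM with EtOH and 572, 291, 431 and 489.6 CPM with calcipotriol, without overlap. The log2 change was -0.83 (SE 0.20, adjusted p = 0.0527, edgeR), just short of the threshold, and DESeq2 gave an adjusted p of 0.00103. Its partner Itgb4 was at 415, 381, 337 and 279 CPM and 313, 152, 198 and 259 CPM (log2 fold change -0.62, SE 0.22, adjusted p = 0.17, edgeR), and calcipotriol replicate 1 lay within the range of the EtOH-treated tumors. Per kilobase, Itgb4 was at 0.706, 0.663, 0.478 and 0.466 times the level of Itga6 with EtOH and at 0.703, 0.671, 0.59 and 0.681 times with calcipotriol, so the ratios overlapped.

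Itga3, the α chain of the other main epithelial laminin receptor, α3β1, was at 254 ± 23.6 against 227 ± 32.4 CPM (EtOH against calcipotriol, mean ± SD, n = 4 each), for a fitted log2 change of -0.17 with a SE of 0.14. Itga2, of the collagen receptor α2β1, lay at 3.0 to 11.2 CPM and 2.56 to 7.23 CPM. Itgb8, which with αv activates latent TGF-β, was at 29.5 ± 13.1 against 30.6 ± 5.32 CPM (EtOH against calcipotriol, mean ± SD, n = 4 each). All 3 overlapped between the groups. Itgb6, the β chain of the epithelial receptor αvβ6, had 0, 0, 0 and 0 counts in the EtOH-treated and 0, 8, 4 and 6 in the calcipotriol-treated tumors, too few for a test.

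The 8 luminal epithelial markers (6 tested) summed to 1012 to 1322 CPM (EtOH) and 599.8 to 899 CPM (calcipotriol). Of the 6, 4 had a positive log2 fold change. Krt18 fell by 0.93 on the log2 scale on the adjusted p alone (adjusted p = 0.0162, edgeR) and Cldn3, a tight junction gene, rose past both thresholds (3.93, adjusted p = 0.00654, edgeR). The sum followed Krt8 and Krt18, its most abundant genes, and its part in the levels of Itga6 and Itgb4 was not tested.

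Vascular and platelet integrins went both ways, with 3 positive and 3 negative log2 fold changes among 6 tested (median -0.23), and did not pass in edgeR, where 2 had an unadjusted p under 0.05. Itga1, the collagen receptor α1 of mural cells, endothelium and some T cells, was at 16, 20.01, 10.4 and 10.3 CPM with EtOH and 9.73, 5.21, 6.58 and 8.27 CPM with calcipotriol. The groups were separate by a small gap, with EtOH replicates 1 and 2 highest (log2 fold change -0.93, SE 0.29, adjusted p = 0.118, edgeR). Itga1 shares 685 exon bases with Gm49395, which was given 0 to 87 counts. Itga2b, the platelet fibrinogen receptor chain αIIb, was at 5.54, 1.36, 2.19 and 2.69 CPM and 4.49, 6.3, 7.26 and 5.38 CPM, higher on average, with overlap through EtOH replicate 1 (log2 fold change 0.99, SE 0.43, adjusted p = 0.25, edgeR).

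Itgb3, which pairs with αIIb on platelets and with αv on vessels, osteoclasts and macrophages, was at 15.2, 15.1, 10.9 and 5.2 CPM with EtOH and 32.7, 2.69, 9.04 and 8.18 CPM with calcipotriol. Calcipotriol replicate 1 was the highest and calcipotriol replicate 5 the lowest of all 8 tumors. Itga5, the fibronectin receptor chain α5, had the same tumor on top, at 202, 184, 186 and 184 CPM and 293, 135, 155 and 179.6 CPM. The other 3 calcipotriol-treated tumors lay below every EtOH-treated tumor, so the group means were close (log2 fold change 0.01, SE 0.22, with a sign that turned under limma-voom). Itga9, a receptor of lymphatic endothelium, was at 7.13 to 15.6 CPM and 5.94 to 12.7 CPM, and Itga8, a receptor of smooth muscle-like cells, at 0.309 to 5.59 CPM and 1.36 to 3.29 CPM.

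Endothelial markers moved with treatment and among the EtOH-treated tumors. All 12 were tested, all 12 had a negative log2 fold change (median -1.41), and Kdr, Robo4, Tie1, Clec14a, Esam and Pecam1 fell past both thresholds. Their sum was 189 to 432 CPM (EtOH) and 72.5 to 142 CPM (calcipotriol). The 8 mural cell markers summed to 433 to 876 CPM (EtOH) and 341 to 534 CPM (calcipotriol), with 7 negative log2 fold changes and Rgs5 past both thresholds. Platelet markers were sparse: 4 of 9 were tested, Gp6 was at 0 counts throughout, Gp9 had at most 13 counts, and the sum, 15.8 to 59.1 CPM (EtOH) and 25.4 to 40.6 CPM (calcipotriol), came mostly from Pf4. Erythroid markers had the most negative median of the 13 marker lists (-2.93): the 7 genes, all tested, summed to 3460 to 5838 CPM (EtOH) and 435 to 821 CPM (calcipotriol), without overlap in any of the 7, and the globin genes Hba-a1, Hba-a2, Hbb-bs and Hbb-bt and the heme synthesis gene Alas2 fell past both thresholds. The part of these cells in the vascular integrins was not tested.

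Itga7 rose and was the member with the smallest p, ranked 81 of all 14458 genes tested. It encodes α7, which pairs with β1 and binds laminin in skeletal, cardiac and smooth muscle. Itga7 was at 11, 9.64, 5.95 and 9.7 CPM with EtOH and 32.5, 21.6, 24.5 and 20.7 CPM with calcipotriol. Every calcipotriol-treated tumor lay well above every EtOH-treated tumor, and calcipotriol replicate 1 was the highest. Group levels were 9.08 ± 2.19 against 24.8 ± 5.38 CPM (EtOH against calcipotriol, mean ± SD, n = 4 each), for a fitted log2 change of 1.45 (SE 0.23, adjusted p = 0.0128, edgeR). It passed in all 8 fits that left out 1 tumor (log2 fold change 1.29 to 1.56, adjusted p 0.00936 to 0.0456, edgeR) and with every other normalization, filter and test tried except glmTreat. Itga7 (ENSMUSG00000025348) lies on the forward strand at chr10:128933818-128958282.

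Skeletal muscle markers were measured beside Itga7. The 8 genes summed to 8.96 to 49.4 CPM (EtOH) and 3.15 to 11.2 CPM (calcipotriol), all 7 tested had a negative log2 fold change (median -2.0), and the muscle actin Acta1 was at 0.584, 0.925, 16 and 15.2 CPM with EtOH and 0, 0.32, 1.44 and 1.78 CPM with calcipotriol. The sums of mural cell markers, which include smooth muscle genes, overlapped between the groups. The part of muscle and mural cells in the level of Itga7 was not tested. The other 2 mesenchymal integrins are collagen receptors. Itga10 was at 110.1, 82.7, 33.8 and 31.5 CPM and 19.7, 43.4, 100.5 and 105 CPM, a wide spread within each group in which EtOH replicates 1 and 2 and calcipotriol replicates 6 and 7 were high (log2 fold change 0.06, SE 0.53). It shares 33.5% of its exon bases with Gm42957, which was given 0 to 39 counts. Itga11, of fibroblasts, was at 1.26, 1.8, 4.33 and 2.91 CPM and 2.42, 0, 1.63 and 0.594 CPM. The 8 fibroblast markers summed to 4124 to 5191 CPM (EtOH) and 3246 to 5702 CPM (calcipotriol).

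Of the broadly expressed integrins, Itgb5 was lower without overlap, at 574, 512, 394 and 396 CPM with EtOH and 382, 237, 298 and 273 CPM with calcipotriol, although calcipotriol replicate 1 lay close to EtOH replicates 3 and 4. It pairs with αv as a vitronectin receptor, and its log2 change was -0.66 (SE 0.18, adjusted p = 0.0891, edgeR, and 0.0118 with DESeq2). Itgav, its partner, was at 280.5, 270.2, 252 and 193 CPM and 220.1, 158, 182 and 207 CPM (log2 fold change -0.38, SE 0.16, adjusted p = 0.235, edgeR). Itgb1 was at 1404 ± 75.6 against 1263 ± 138 CPM (EtOH against calcipotriol, mean ± SD, n = 4 each), with overlap and a fitted log2 change of -0.15 (SE 0.13, adjusted p = 0.591, edgeR).

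**Figure D4:**
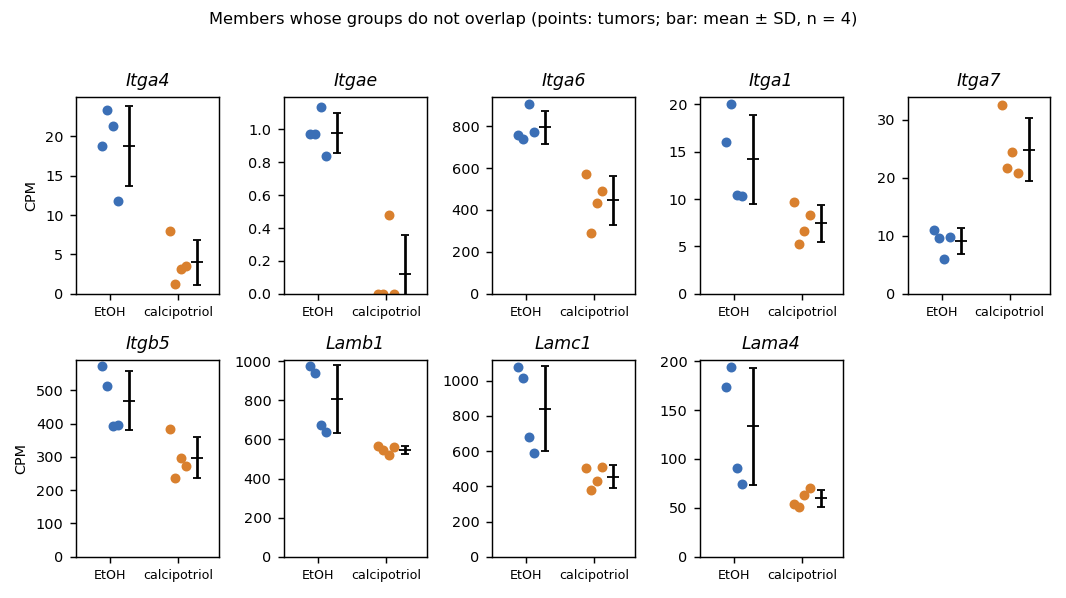
The plot of separated members gives CPM (vertical axes, from 0) of tested members whose groups do not overlap, with each tumor as a point and the mean ± SD of 4 tumors as a bar. Itga7 is the one in which calcipotriol-treated tumors (orange) lie above EtOH-treated tumors (blue), and in Itga1, Itgb5, Lamb1, Lamc1 and Lama4 the EtOH-treated tumors form a higher and a lower pair.

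Of the epithelial laminin chains, Lamb3, the β3 chain, was at 12.4, 8.96, 9.68 and 14.3 CPM with EtOH and 11.8, 2.97, 17.8 and 16.6 CPM with calcipotriol. The groups overlapped, with calcipotriol replicate 5 lowest (log2 fold change 0.11, SE 0.44).

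Lama3, the α3 chain, had 13, 16, 5 and 0 counts in the EtOH-treated and 0, 21, 144 and 280 in the calcipotriol-treated tumors, so 2 of the calcipotriol-treated tumors held most of its reads. Its log2 change was 3.61 with a SE of 1.41 (adjusted p = 0.207, edgeR). Without calcipotriol replicate 1, which had 0 counts, it passed (log2 fold change 4.03, adjusted p = 0.0464, edgeR). Per kilobase, Lama3 was below Lamb3 in all 8 tumors. The 9 basal, myoepithelial and keratinocyte markers (4 tested) summed to 3.31 to 8.1 CPM (EtOH) and 6.91 to 59.6 CPM (calcipotriol), highest in calcipotriol replicates 6 and 7 as for Lama3. Krt14 (5.17, adjusted p = 0.0336, edgeR) and Trp63 (2.57, adjusted p = 0.0333, edgeR) rose past both thresholds. The part of such cells in the level of Lama3 was not tested.

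The chains of laminin-511, the main laminin of epithelial and vascular basement membranes, were lower with calcipotriol by less than 2-fold. Lamc1, the γ1 chain of most laminins, was at 1076, 1014, 679.5 and 591 CPM with EtOH and 507, 376, 428 and 509.9 CPM with calcipotriol, without overlap (log2 fold change -0.88, SE 0.21, adjusted p = 0.0548, edgeR, and 0.00115 with DESeq2). Lamb1, the β1 chain, was at 974, 942, 673 and 639.7 CPM and 565, 545, 520.5 and 562 CPM, again without overlap (log2 fold change -0.56, SE 0.16, adjusted p = 0.101, edgeR). Lama5, the α5 chain, was at 1081, 879.7, 568 and 502 CPM and 534, 482, 446 and 529.9 CPM, where calcipotriol-treated tumors were close together and overlapped with EtOH replicate 4 (log2 fold change -0.61, SE 0.23, adjusted p = 0.197, edgeR). In all 3 chains EtOH replicates 1 and 2 were the highest tumors. These 3 all had an unadjusted p under 0.05 in edgeR, and Lamc1 and Lamb1 had an adjusted p under 0.05 with DESeq2.

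Lama1, the α1 chain of the laminin of early embryos and of epithelial development, was nearly silent with EtOH. It had 0, 0, 0 and 8 counts in the EtOH-treated and 120, 51, 7 and 33 in the calcipotriol-treated tumors, and EtOH replicate 4 overlapped with calcipotriol replicate 6. It was removed by the filter on low counts in the fit with all tumors, so no test of it is given for that fit. Lamc1, of the same group, passed both thresholds in the fit without EtOH replicate 4, as did Lama4, both lower with calcipotriol.

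Among mesenchymal and vascular laminins, Lama4 had separated groups. It encodes the α4 chain of laminin-411 in the basement membrane of blood vessels and was at 174, 194, 91.1 and 74.3 CPM with EtOH and 54, 51, 63.3 and 70.1 CPM with calcipotriol. The calcipotriol-treated tumors were within a narrow range, whereas EtOH replicates 1 and 2 were well above EtOH replicates 3 and 4. The log2 change was -1.16 (SE 0.29, adjusted p = 0.0623, edgeR), and it passed both thresholds with DESeq2 (adjusted p = 0.00191) and without the filter on low counts (adjusted p = 0.0138, edgeR). Lamc3, a γ3 chain, showed the same pairs more sharply, at 118, 109, 18 and 9.26 CPM with EtOH and 58.9, 24.9, 42.7 and 47.9 CPM with calcipotriol, all 4 of which lay between the EtOH pairs (log2 fold change -0.54, SE 0.67). Lamb2, the β2 chain of muscle, kidney and vessels, was at 139, 109, 73 and 63.7 CPM and 94.5, 57.7, 98.8 and 96.6 CPM. Lama2, the α2 chain of muscle and peripheral nerve, was at 5.59, 4.87, 9.15 and 3.75 CPM and 6.91, 2.65, 7.79 and 8.39 CPM. In Lamb2 and Lama2 the groups overlapped, and calcipotriol replicate 5 was the lowest tumor. Endothelial and mural cell markers, whose sums are given above, had EtOH replicates 1 and 2 highest too, as did the erythroid markers, and their part in Lama4 and Lamc3 was not tested.

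Genes that work with integrins and laminins were read from 4 further lists. Of 30 genes of integrin activation and adhesion plaques, all tested, 22 had a negative log2 fold change (median -0.22). Fermt3, the kindlin that activates integrins in blood cells, was at 37.5, 33.7, 53.3 and 55.8 CPM with EtOH and 30.2, 17.5, 11.7 and 12.1 CPM with calcipotriol and fell by 1.33 on the log2 scale (SE 0.31, adjusted p = 0.0496, edgeR). Tns4, an epithelial tensin that binds β1 tails, rose from 14.2, 17.6, 21.5 and 20.3 CPM to 48.6, 33.1, 53.2 and 68.9 CPM (log2 fold change 1.47, SE 0.22, adjusted p = 0.0107, edgeR). Tln1, the talin that links integrins to actin, was at 545 ± 16 against 363 ± 109 CPM (EtOH against calcipotriol, mean ± SD, n = 4 each) (adjusted p = 0.138, edgeR). The list thus had 1 gene in each direction past both thresholds among 30 (6.67%), while 2.02% of all genes tested passed (1.07% higher, 0.948% lower).

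Of 24 basement membrane partners of laminin, 21 were tested, 13 had a negative log2 fold change (median -0.30), 3 fell and 1 rose past both thresholds. Those past both thresholds are 19.05% of the 21, beside 2.02% of all genes tested. Nid2, a nidogen that ties laminin to collagen IV, fell from 37.4, 39, 18.8 and 25.5 CPM to 12.6, 4.75, 7.45 and 14.4 CPM (log2 fold change -1.62, adjusted p = 0.0404, edgeR). Col18a1, which yields endostatin, fell too, at 919 ± 258 against 339.8 ± 136 CPM (EtOH against calcipotriol, mean ± SD, n = 4 each) (log2 fold change -1.43, adjusted p = 0.0284, edgeR), as did Fbln1, a fibulin, at 55.1 ± 13.3 against 20.1 ± 5.78 CPM (EtOH against calcipotriol, mean ± SD, n = 4 each) (log2 fold change -1.46, adjusted p = 0.0175, edgeR). Col4a6, a collagen IV chain of epithelial and smooth muscle basement membranes, rose, from 4, 0, 0 and 7 counts to 163, 649, 122 and 193 counts (log2 fold change 6.59, SE 0.94, adjusted p = 0.0082, edgeR). It met the filter on low counts only through the calcipotriol-treated tumors, where it was high, so its call and fold change are not independent of that filter. The other nidogen, Nid1, was at 48 ± 6.02 against 42.2 ± 19.1 CPM (EtOH against calcipotriol, mean ± SD, n = 4 each), with overlap.

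The 9 genes of hemidesmosomes and other laminin receptors had no member with an adjusted p under 0.05 in edgeR and no member whose groups were separate (median log2 fold change -0.11, with 1 at an unadjusted p under 0.05). Of these, Dag1, the laminin receptor dystroglycan, had the smallest p, at 265, 255, 196 and 164 CPM with EtOH and 200.5, 91.5, 126 and 168 CPM with calcipotriol (log2 fold change -0.59, adjusted p = 0.233, edgeR). Of 30 integrin ligands other than laminin, 29 were matched by symbol and 27 tested, and the median log2 fold change was 0.00. Ccn2, a matricellular ligand of several integrins, rose by less than 2-fold on the adjusted p alone, at 65.7 ± 15.6 against 129.7 ± 20.7 CPM (EtOH against calcipotriol, mean ± SD, n = 4 each) (log2 fold change 0.98, adjusted p = 0.024, edgeR). Of the ligands of α4, Vcam1 was at 237, 265, 121 and 128 CPM and 267, 152, 192 and 214 CPM, and Madcam1 at 0 counts in every tumor. The fibronectin gene Fn1 was at 11200, 11291, 8389 and 6988 CPM with EtOH and 16057, 10724, 13362.5 and 16409 CPM with calcipotriol. It was higher on average with calcipotriol, with overlap (log2 fold change 0.58, SE 0.21, adjusted p = 0.18, edgeR).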

How the data were processed

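RNA of 8 whole tumors (4 EtOH, 4 calcipotriol, each a biological replicate by the paper's methods) was sequenced. The authors deposited estimated counts per Ensembl gene, unscaled between tumors. The submitters' processing notes name GRCm38, STAR 2.5.3, RSEM 1.3.1 and DESeq2 1.24.0; the annotation and strand setting are not given in the sources used here. Estimated counts, of which 4.2% to 6.22% per tumor were not whole, were rounded. Identifiers were matched to GENCODE M21 (52081 of 55414), whose merged exons gave gene lengths. The test was edgeR 4.0.16 in R 4.3.3 (filterByExpr, TMM, glmQLFit and glmQLFTest, 14458 genes), and SEs were derived from its F statistic. Alternatives were DESeq2 1.42.0, limma-voom (limma 3.58.1), glmTreat, other normalizations and filters, and each tumor left out. On simulated counts with 4-fold changes in 200 genes, edgeR recovered 187 with 9 false calls among 14458 genes. The simulation gave every gene the same dispersion (0.12) and had no deviating tumors within a group. It therefore does not measure recovery of smaller changes or error rates in these tumors.

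Members, groups and lists were chosen with earlier results of these data known. 1 member is not reported here, other than in counts and medians. Members under an adjusted p of 0.05 or with separated groups were given tumor by tumor, with up to 3 further members per group (the most abundant per kilobase), and of the pathway lists the genes past both thresholds or else the one with the smallest p. Other members given tumor by tumor, and Tln1, Nid1, Vcam1, Madcam1, Fn1, Npnt and Spp1, were added after their values were seen.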

Additional observations from a re-analysis of the deposited data

Results flagged for a closer look

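Dixon's test at the 5% level, on log2 of CPM plus 0.1, compared the highest and the lowest of 4 tumors with the rest. It marked 5 of 68 sets of tumors (34 members, each treatment), and chance alone gives about 3.4. Itgax in calcipotriol replicate 1 was at 16.7 CPM, whereas replicates 5, 6 and 7 were at 1.55 to 1.63 CPM. Itgae in calcipotriol replicate 6 was at 0.481 CPM, which is 10 counts, against 0 in the others. Lamb2 in calcipotriol replicate 5 was at 57.7 CPM against 94.5 to 98.8 CPM, and Lama2 in the same tumor was at 2.65 CPM against 6.91 to 8.39 CPM. Itga5 in EtOH replicate 1 was at 202.5 CPM and EtOH replicates 2, 3 and 4 were at 183.7 to 185.8 CPM.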

How the results depend on the processing

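Neither the labels nor the paper's methods give a pairing of tumors between the groups, so no paired analysis was done. Over the fits that left out 1 tumor, 110 to 642 genes in all, 1 to 6 members and 2 to 13 genes of the 4 pathway lists passed both thresholds, and 1 to 10 members had an adjusted p under 0.05, against 292, 2, 6 and 2 with all tumors. The 6 members that passed without calcipotriol replicate 1 were Itga7, Lama3, Itga4, Itgal, Itgam and Itgax. The 5 without EtOH replicate 4 were Itga7, Itga4, Lama4, Lamc1 and Lama1. In that fit the remaining EtOH-treated tumors were all at 0 counts for Lama1. It met the filter on low counts only through the calcipotriol-treated tumors, where it was high. Its call is therefore not independent of that filter, and Lama1 passed in no other fit. DESeq2 gave 640 genes, 4 members and 13 pathway genes past both thresholds and 10 members on the adjusted p alone. Without a filter on low counts these were 458, 4, 11 and 6, and with a minimum of 10 counts in every tumor 4 members had an adjusted p under 0.05. For the refits, the share of all genes on the adjusted p alone was not counted. Their member counts under that rule therefore cannot be set against all genes. glmTreat, which tests against a 2-fold change, gave 22 genes, 1 pathway gene and 0 members (3 at an unadjusted p under 0.05). Under limma-voom the log2 fold change changed sign in Itga5 (-0.057), Itga8 (0.10), Itgb3 (-0.17), Itga10 (-0.025), Lamb3 (-0.13) and Lamc3 (0.17), and leaving out 1 tumor gave both signs in Itga5 -0.27 to 0.15, Itgb3 -0.80 to 0.52, Itga10 -0.24 to 0.45, Itgb8 -0.18 to 0.26, Lama2 -0.024 to 0.44, Lamb2 -0.30 to 0.090 and Lamb3 -0.12 to 0.44. The cause was not tested. Of the refitted member values (glmTreat not among them), 432 kept direction and call, 10 gained a call, 6 lost one (all Itga4, each with 1 tumor left out) and 24 changed sign. Library totals in place of TMM moved the median log2 fold change of all genes to 0.10 and that of the members to -0.46, with 24 of 34 members negative and Itga4 and Itga7 past both thresholds; it gave 175 higher and 94 lower genes, against 155 and 137 with TMM.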

Other observations

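The tumors of a group were not alike across these genes. Calcipotriol replicate 5 was the lowest calcipotriol-treated tumor for 22 of the 34 tested members, or 64.7%, and for 28.8% of all genes tested. Calcipotriol replicate 1 was the highest one for 20 members (58.8%, and 31% of all genes). EtOH replicate 4 was the lowest EtOH-treated tumor for 19 members (55.9%, and 27.8% of all genes). Several chains of one compartment vary together, so the members do not count as separate observations of a tumor.

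The ratio of chains within a tumor, per kilobase, varied among leukocyte and platelet integrins as well. Itgax was at 0.0684, 0.0813, 0.015 and 0.0229 times the level of Itgam with EtOH and at 0.114, 0.0141, 0.02 and 0.0198 times with calcipotriol, and Itgal at 0.0567, 0.0668, 0.023 and 0.0248 and 0.0425, 0.0106, 0.0176 and 0.00585 times. EtOH replicates 1 and 2 and calcipotriol replicate 1 had the high ratios in both. Itga2b was at 0.394, 0.0977, 0.218 and 0.559 times the level of Itgb3 with EtOH and at 0.149, 2.53, 0.869 and 0.712 times with calcipotriol. Among other ligands of integrins, the nephronectin gene Npnt, whose product binds α8β1, was at 422, 403, 242 and 226 CPM with EtOH and 47.9, 29.9, 146 and 144 CPM with calcipotriol without overlap (log2 fold change -1.81, adjusted p = 0.073, edgeR), and the osteopontin gene Spp1 at 10237, 12184, 11609 and 11669 CPM and 12256, 22530, 23026 and 23376 CPM (log2 fold change 0.83, adjusted p = 0.0714, edgeR). Both were named after their values were seen.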
